A study of Homo sapiens with 12 samples.

Results

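FKBP5, TSC22D3 (also called GILZ), DUSP1, NFKBIA, TNFAIP3, SGK1, ERRFI1 and TIPARP are 8 genes known as targets of the glucocorticoid receptor whose products feed back on the receptor or restrain inflammatory and growth signalling. They were picked by symbol from the deposited count tables. All 8 of the 8 were found among 63925 gene IDs, and all 8 passed the filter on low counts that left 17819 genes for testing. They were followed in 12 libraries of polyadenylated RNA from neural cultures that had been grown from human embryonic stem cells over 10 weeks with dual SMAD inhibition. The 4 groups of 3 sister cultures each were H9 cultures given 1 µM dexamethasone for 6 h, H9 cultures given the DMSO vehicle for 6 h, H1 cultures given 1 µM dexamethasone for 6 h and H1 cultures given the DMSO vehicle for 6 h. Both lines are established ones, and each stands for itself only. All groups were kept in the same neurobasal medium with a B-27 supplement, ascorbic acid, cyclic AMP, BDNF and GDNF. B-27 in its standard form carries corticosterone, itself an agonist of the receptor, and the labels do not state which form was used. Nothing in the labels says that sister cultures came from separate differentiations, so the p-values measure the spread between these cultures.

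Dexamethasone is a synthetic glucocorticoid. The ligand-bound receptor leaves its chaperone complex, enters the nucleus and switches on genes whose products limit the response: FKBP5 lowers the receptor's affinity for hormone, TSC22D3 binds the inflammatory transcription factors NF-kB and AP-1, DUSP1 dephosphorylates MAP kinases, and NFKBIA holds NF-kB in the cytoplasm. In brain cells FKBP5 is among the genes most used as a readout of the response to stress hormones.

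The cultures carried neuronal, progenitor and astrocyte RNA. Summed levels of the neuronal markers were 3072 to 5120 CPM (read counts scaled to TMM-adjusted library size) across the libraries, with 6 of 7 markers at 1 CPM or more in at least 1 library, and TUBB3 at 0.335 ± 0.077 CPM in H9 dexamethasone cultures and 0.692 ± 0.191 CPM in H9 vehicle cultures (SD, n = 3). The progenitor marker SOX2, the microglial marker AIF1 and the pluripotency marker POU5F1 are listed at 0 counts in every library, and whether the cells lack these RNAs or the counting left the genes out cannot be told apart in these files. Summed microglial markers stayed between 0.296 and 3.16 CPM. Total counts were 14751168 in H9 vehicle culture 3 and 20871163 to 27505804 elsewhere. That culture stood apart: mitochondrial transcripts took 0.607% of its counts and 2.91% to 5.64% of those of all others, and its root mean square log2 deviation from its group was 0.853, with 0.268 to 0.511 for the others. Dexamethasone effects and calls of the 8 genes that rest on it are also given without it.

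Gene coordinates are those of GENCODE 29 on GRCh38, whose ID versions all 8 genes share. The 250 bases before their annotated transcription starts were read from RefSeq (GRCh38.p14), in which all 8 genes matched, with 16 start sites between them. The 5 windows shown belong to the genes for which the dexamethasone and inflammatory comparisons matter most. They are FKBP5 at chr6:35688916-35689165 on the minus strand, TSC22D3 at chrX:107717063-107717312 on the minus strand, DUSP1 at chr5:172771196-172771445 on the minus strand, NFKBIA at chr14:35404750-35404999 on the minus strand and TNFAIP3 at chr6:137867009-137867258 on the plus strand. They are printed 5′ to 3′ on the strand of the gene, with the matches named afterwards in capitals.
FKBP5: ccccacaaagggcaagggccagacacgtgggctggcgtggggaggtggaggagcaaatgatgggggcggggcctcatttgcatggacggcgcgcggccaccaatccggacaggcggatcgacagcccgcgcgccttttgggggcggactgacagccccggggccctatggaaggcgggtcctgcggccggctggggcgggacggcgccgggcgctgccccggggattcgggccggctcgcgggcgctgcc
TSC22D3: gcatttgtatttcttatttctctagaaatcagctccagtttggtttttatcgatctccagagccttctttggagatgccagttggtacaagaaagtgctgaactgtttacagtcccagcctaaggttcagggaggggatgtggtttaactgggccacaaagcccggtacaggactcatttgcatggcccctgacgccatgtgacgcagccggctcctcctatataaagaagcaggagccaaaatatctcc
DUSP1: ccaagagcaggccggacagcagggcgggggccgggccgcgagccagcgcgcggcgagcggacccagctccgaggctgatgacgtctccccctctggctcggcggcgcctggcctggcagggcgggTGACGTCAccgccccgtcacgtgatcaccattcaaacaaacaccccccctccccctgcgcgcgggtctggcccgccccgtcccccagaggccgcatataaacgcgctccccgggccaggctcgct
NFKBIA: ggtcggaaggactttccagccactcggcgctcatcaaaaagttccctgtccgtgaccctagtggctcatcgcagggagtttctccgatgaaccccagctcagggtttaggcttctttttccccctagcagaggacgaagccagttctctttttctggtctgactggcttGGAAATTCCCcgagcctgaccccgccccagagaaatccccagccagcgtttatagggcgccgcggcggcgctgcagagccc
TNFAIP3: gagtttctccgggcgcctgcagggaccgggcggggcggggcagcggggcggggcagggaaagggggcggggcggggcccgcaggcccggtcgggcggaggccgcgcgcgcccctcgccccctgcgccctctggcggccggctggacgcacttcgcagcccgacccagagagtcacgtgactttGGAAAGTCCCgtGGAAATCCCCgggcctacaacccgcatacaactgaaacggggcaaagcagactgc
The capitals mark the cyclic AMP response element TGACGTCA in DUSP1, 125 to 118 bases before the start, and matches on either strand to a form of the NF-kB binding site, GGG and TTCC with any 3 bases between them, in NFKBIA (81 to 72 bases before the start) and TNFAIP3 (67 to 58 and 55 to 46 bases before the start). TGACGTCA occurs in 1.65% and this NF-kB motif in 5.67% of the 35116 RefSeq windows of the same length. The hexamer AGAACA, an arm of the receptor's binding site, was in 0 of the 16 windows and in 12.4% of all windows, and the full palindrome, AGAACA and TGTTCT with any 3 bases between them, was in 0 of the 16 and in 0.00285% of all, both strands read. A match is a string of letters and not a bound site, and receptor sites outside these windows were not searched. Counts are per gene, so the start used in these cultures cannot be told apart, and of the 5 genes shown DUSP1 alone has a single annotated start in GENCODE 29.

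FKBP5, the co-chaperone that lowers hormone binding by the receptor, had the smallest p of all 17819 genes in response to dexamethasone. It lies at chr6:35573585-35728583 on the minus strand. Its level was 29.4, 25.6 and 29.8 CPM in the 3 H9 dexamethasone cultures, against 4.74, 3.76 and 4.76 CPM in the H9 vehicle cultures. In H1 it was 18.9, 22.9 and 25.1 CPM in the dexamethasone cultures, against 5.98, 5.73 and 4.89 CPM in the vehicle cultures. Every dexamethasone culture lay far above every vehicle culture of either line, and H9 vehicle culture 3 sat level with its sisters. The log2 fold change over both lines was 2.35 ± 0.11 (SE; 5.08-fold, 95% interval 4.33 to 5.97), with an edgeR adjusted p of 8.34e-07. It was 2.68 ± 0.15 in H9 and 2.01 ± 0.15 in H1, with edgeR adjusted p of 1.24e-05 and 0.00021.

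The rise of FKBP5 was larger in H9 by 0.67 ± 0.21 on the log2 scale (95% interval 0.22 to 1.12), with an unadjusted p of 0.00733 in edgeR's test and an adjusted p of 0.548. The difference did not pass over all genes. Levels in the lines crossed over between treatments. Among dexamethasone cultures FKBP5 was 28.2 ± 2.3 CPM in H9 and 22.3 ± 3.1 CPM in H1, and among vehicle cultures it was 4.42 ± 0.57 CPM in H9 and 5.53 ± 0.57 CPM in H1 (SD, n = 3 each). The cultures of the lines did not overlap in either treatment, and neither line difference passed (log2 0.34 ± 0.14 under dexamethasone, edgeR adjusted p = 0.0641, and -0.33 ± 0.15 in vehicle, adjusted p = 0.0999). Under dexamethasone the difference passed without H9 vehicle culture 3 (edgeR adjusted p = 0.0139), without H1 dexamethasone culture 3 (0.0463), in DESeq2 (0.0425) and in limma-voom (0.0425).

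**Figure D1:**
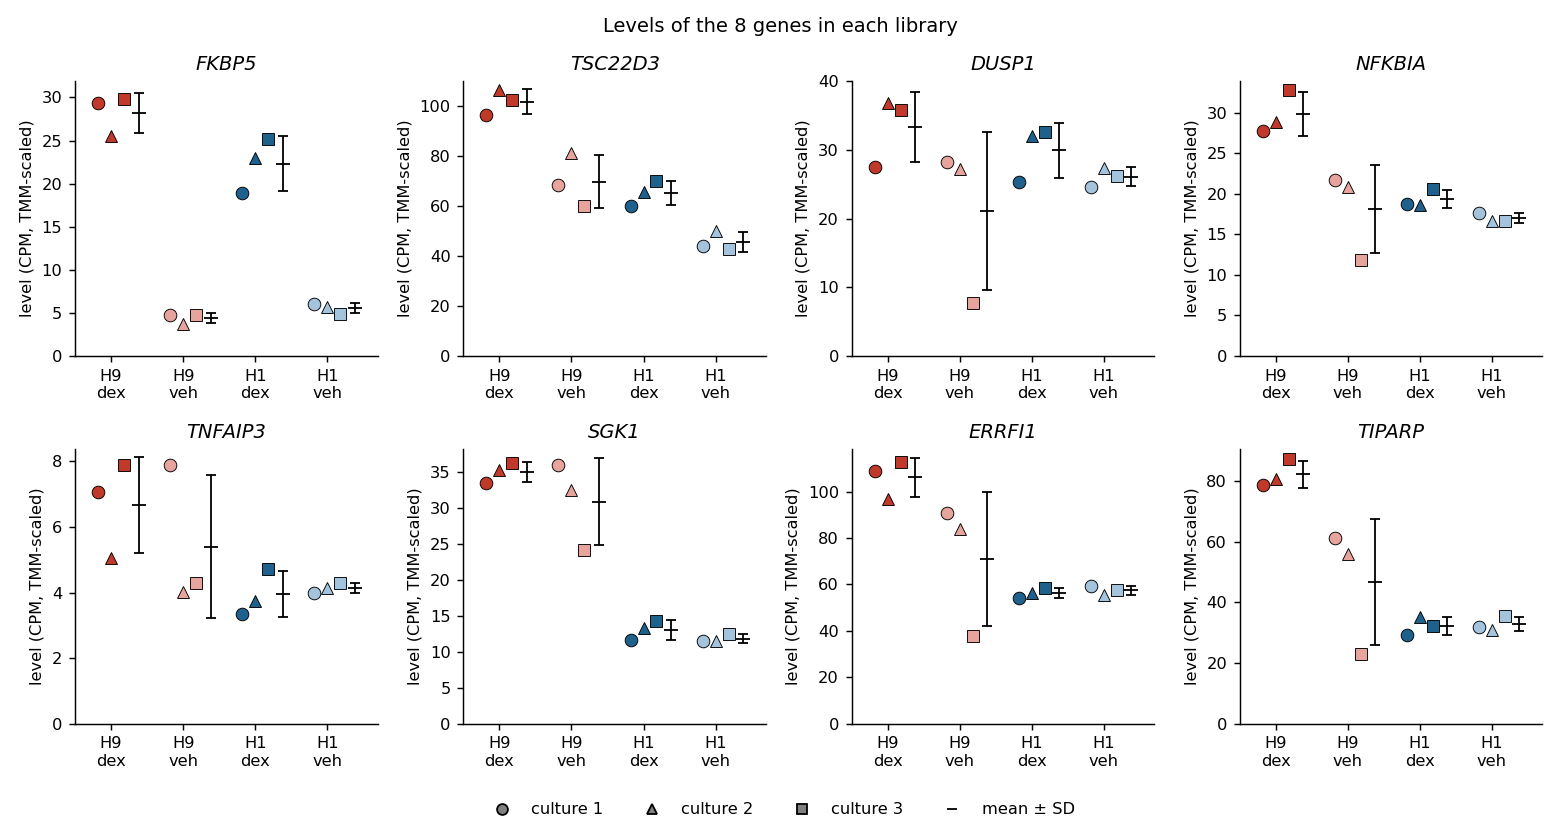
Level of each of the 8 genes in TMM-scaled CPM (vertical axes, each from 0) in every library, by line and treatment, with dexamethasone (dex) left of vehicle (veh); points are cultures and bars the mean ± SD of 3. FKBP5 separates the treatments in both lines, TSC22D3 does so by less, and in the other 6 panels the H9 vehicle points are spread by culture 3 or overlap the dexamethasone points.

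TSC22D3, a leucine zipper protein through which glucocorticoids restrain NF-kB and AP-1, was the other of the 8 genes that rose over both lines. It lies at chrX:107713221-107777342 on the minus strand. Its level was 96.5, 107 and 103 CPM in the H9 dexamethasone cultures, against 68.3, 81.1 and 60.0 CPM in the H9 vehicle cultures. In H1 it was 60.2, 65.8 and 69.9 CPM in the dexamethasone cultures, against 44.0, 50.0 and 42.9 CPM in the vehicle cultures. The treatments did not overlap in either line, and the H1 dexamethasone cultures reached only the range of the H9 vehicle cultures. The log2 fold change was 0.53 ± 0.08 over both lines (1.44-fold, edgeR adjusted p = 0.0371), 0.54 ± 0.12 in H9 (adjusted p = 0.268) and 0.52 ± 0.12 in H1 (adjusted p = 0.588). The difference between the lines' effects was 0.03 ± 0.17 (95% interval -0.34 to 0.39). The call over both lines held in 2 of 12 leave-one-out fits, those without H9 vehicle culture 2 or 3, and adjusted p reached 0.182 in the others. With H9 vehicle culture 3 dropped, TSC22D3 passed over both lines (log2 0.48 ± 0.06, edgeR adjusted p = 0.000524), in H9 (0.45 ± 0.09, adjusted p = 0.0469) and in H1 (0.52 ± 0.08, adjusted p = 0.00802). With all 12 libraries DESeq2 called TSC22D3 over both lines, in H9 (DESeq2 adjusted p = 0.00615) and in H1. The fit of the H1 libraries alone also called it in H1.

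In all, 2 of the 8 genes were called higher over both lines, where 0.0954% of all genes tested were (0.101% in either direction). FKBP5 alone was called in H9, where 0.0673% of genes were, and in H1, where 0.0505% were. The counts without H9 vehicle culture 3 were 3 of 8 over both lines (0.486% of genes called higher), 4 of 8 in H9 (0.254%) and 2 of 8 in H1 (0.166%). The median log2 fold change of the 8 genes was 0.41 over both lines, 0.62 in H9 and 0.16 in H1, while the medians over all genes tested were -0.01, -0.02 and -0.00. Without that culture the members' medians were 0.23 over both lines and 0.36 in H9. None of the 8 genes passed for the difference of the effects, a contrast in which 0% of genes did (0 genes at an adjusted p under 0.05 in edgeR, DESeq2 or limma-voom, and 1329 at an unadjusted p under 0.05 in edgeR).

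**Figure D2:**
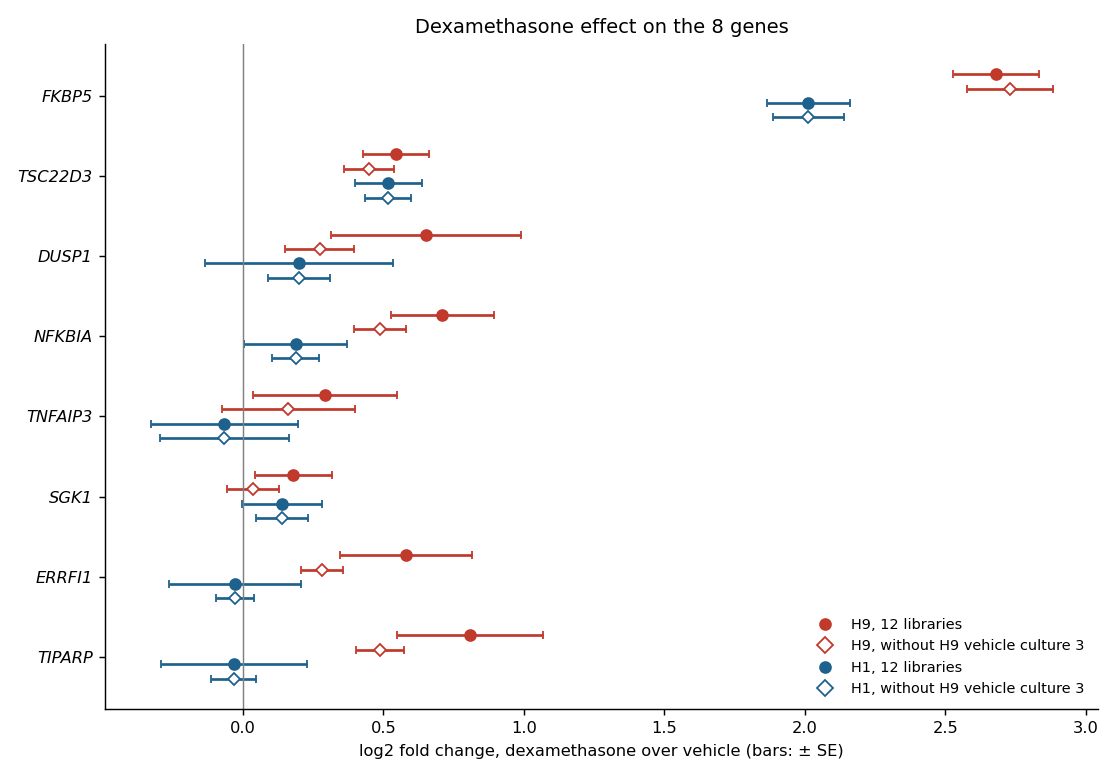
Log2 fold change of each gene, dexamethasone over vehicle (horizontal axis, bars ± SE), in H9 and in H1, from the 12 libraries (filled) and without H9 vehicle culture 3 (open). FKBP5 lies above 2 in both lines and TSC22D3 near 0.5, while the H9 values of DUSP1, NFKBIA, ERRFI1 and TIPARP move toward 0 without that culture and the H1 values stay in place.

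NFKBIA encodes the inhibitor that keeps NF-kB out of the nucleus and is itself induced by NF-kB. It lies at chr14:35401511-35404749 on the minus strand. Its level was 27.7, 28.9 and 32.9 CPM in the H9 dexamethasone cultures, against 21.7, 20.8 and 11.8 CPM in the H9 vehicle cultures. The H1 values were 18.7, 18.7 and 20.6 CPM in the dexamethasone cultures, against 17.7, 16.7 and 16.6 CPM in the vehicle cultures. The treatments did not overlap in either line, but the gap was small in H1 and the lowest H9 value was that of culture 3. The log2 fold change was 0.45 ± 0.13 over both lines (edgeR adjusted p = 0.476), 0.71 ± 0.18 in H9 (adjusted p = 0.288) and 0.19 ± 0.18 in H1, none of which passed. NFKBIA passed without H9 vehicle culture 3 over both lines (0.34 ± 0.06, edgeR adjusted p = 0.0155) and in H9 (0.49 ± 0.09, adjusted p = 0.0311), and not in H1 (0.19 ± 0.08, adjusted p = 0.472). With all 12 libraries DESeq2 called NFKBIA in H9 (DESeq2 adjusted p = 0.0341), and neither over both lines nor in H1.

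TNFAIP3 (A20), an enzyme that edits ubiquitin chains to shut off NF-kB signalling, had the single lowest count of the 8 genes, with 63 to 206 per library. FKBP5 had fewer counts in H9 vehicle cultures 1 and 2, 117 and 90 against 195 and 96 for TNFAIP3. TNFAIP3 lies at chr6:137867188-137883312 on the plus strand. Its level was 7.06, 5.05 and 7.91 CPM in the H9 dexamethasone cultures, against 7.91, 4.01 and 4.28 CPM in the H9 vehicle cultures. In H1 it was 3.36, 3.75 and 4.73 CPM in the dexamethasone cultures, against 3.99, 4.13 and 4.28 CPM in the vehicle cultures. The treatments overlapped in both lines. Over both lines the log2 fold change was 0.11 ± 0.18 (95% interval -0.29 to 0.51, edgeR adjusted p = 0.806), so a change of the size seen for TSC22D3 lay just outside that interval. An antisense gene, AL357060.1, shares 95 exon bases with TNFAIP3 and had at most 32 counts. The strand setting of the counting is not given in the sources used here, so reads of these bases cannot be told apart.

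DUSP1, the phosphatase that inactivates the stress-activated MAP kinases, is a textbook target of the receptor. It lies at chr5:172768090-172771195 on the minus strand. Its level was 27.5, 36.8 and 35.8 CPM in the H9 dexamethasone cultures, against 28.2, 27.2 and 7.75 CPM in the H9 vehicle cultures. The H1 values were 25.3, 31.9 and 32.5 CPM in the dexamethasone cultures, against 24.6, 27.4 and 26.2 CPM in the vehicle cultures. The treatments overlapped in both lines, where dexamethasone cultures 2 and 3 were above all vehicle cultures and culture 1 was not. Over both lines the log2 fold change was 0.43 ± 0.24 (95% interval -0.09 to 0.94, edgeR adjusted p = 0.701). Without H9 vehicle culture 3 it was 0.24 ± 0.08 (adjusted p = 0.284), with 0.27 ± 0.12 in H9 and 0.20 ± 0.11 in H1. DUSP1 passed in none of the fits with a library dropped or another filter, scaling or tool.

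SGK1, a kinase named for its induction by serum and glucocorticoids that acts on ion channels and transporters, did not pass for dexamethasone. It lies at chr6:134169246-134318112 on the minus strand. Its level was 33.5, 35.3 and 36.3 CPM in the H9 dexamethasone cultures, against 36.0, 32.4 and 24.1 CPM in the H9 vehicle cultures. The H1 values were 11.6, 13.2 and 14.3 CPM in the dexamethasone cultures, against 11.4, 11.5 and 12.5 CPM in the vehicle cultures. The treatments overlapped in both lines, and the lines were far apart. Over both lines the log2 fold change was 0.16 ± 0.10 (95% interval -0.06 to 0.38, edgeR adjusted p = 0.701), and 0.09 ± 0.07 without H9 vehicle culture 3.

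ERRFI1 (MIG6) binds and inhibits the EGF receptor kinases, and TIPARP is an ADP-ribosyltransferase that represses the aryl hydrocarbon receptor. ERRFI1 lies at chr1:8004404-8026308 on the minus strand and TIPARP at chr3:156673235-156706770 on the plus strand. ERRFI1 was at 109, 96.7 and 113 CPM in the H9 dexamethasone cultures, against 90.9, 83.8 and 37.9 CPM in the H9 vehicle cultures, and in H1 at 54.1, 56.5 and 58.3 CPM in the dexamethasone cultures, against 59.3, 55.3 and 57.7 CPM in the vehicle cultures. TIPARP was at 78.8, 80.6 and 87.4 CPM in the H9 dexamethasone cultures, against 61.3, 56.0 and 23.1 CPM in the H9 vehicle cultures, and in H1 at 29.3, 35.2 and 32.1 CPM in the dexamethasone cultures, against 32.1, 31.0 and 35.7 CPM in the vehicle cultures. Both genes were higher without overlap in H9 and overlapped between treatments in H1, and culture 3 was by far the lowest H9 vehicle culture for both. Antisense genes share 155 exon bases with ERRFI1 (AL034417.4, at most 28 counts) and 37 with TIPARP (TIPARP-AS1, at most 10 counts).

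The log2 fold change of ERRFI1 was 0.58 ± 0.23 in H9 (edgeR adjusted p = 0.302) and -0.03 ± 0.24 in H1, and that of TIPARP was 0.81 ± 0.26 in H9 (adjusted p = 0.299) and -0.03 ± 0.26 in H1. With that culture left out, TIPARP passed in H9 (0.49 ± 0.09, edgeR adjusted p = 0.0205) and ERRFI1 did not (0.28 ± 0.07, adjusted p = 0.132). The TIPARP effect was larger in H9 by 0.84 ± 0.37 (95% interval 0.04 to 1.64), with an unadjusted p of 0.0414 in edgeR's test and an adjusted p of 0.548. Without that culture the difference was 0.52 ± 0.12 (adjusted p = 0.306). Over the 12 libraries ERRFI1 and TIPARP were also the most alike of all pairs among the 8 genes, with a root mean square difference of 0.182 between their standardized log2 levels. NFKBIA came next, 0.340 from ERRFI1 and 0.388 from TIPARP, while DUSP1 and SGK1 were least alike at 1.32. Without H9 vehicle culture 3 ERRFI1 and TIPARP were still the most alike (0.150), SGK1 came next, 0.262 from ERRFI1 and 0.273 from TIPARP, and FKBP5 and SGK1 were least alike (1.23).

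Counting every gene whose dexamethasone cultures all lay above the vehicle cultures, 3 of the 8 did so in both lines (FKBP5, TSC22D3 and NFKBIA), where 0.763% of all genes tested did. In H9 alone 5 of 8 did so, adding ERRFI1 and TIPARP, against 9.76% of all genes, and in H1 alone 3 of 8, against 7.15%. H9 vehicle culture 3 was below both sister cultures for 6 of the 8 genes, all but FKBP5 and TNFAIP3, where 45.0% of all genes were. Its log2 distance from the mean of its sisters was -1.82 for DUSP1, -1.34 for TIPARP, -1.20 for ERRFI1, -0.84 for NFKBIA, -0.50 for SGK1, -0.39 for TNFAIP3, -0.31 for TSC22D3 and 0.17 for FKBP5. Over all genes the median was 0.00, the lower quartile -0.54 and the lowest twentieth ended at -1.44. The part of its low mitochondrial share and depth in these values was not tested.

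**Figure D3:**
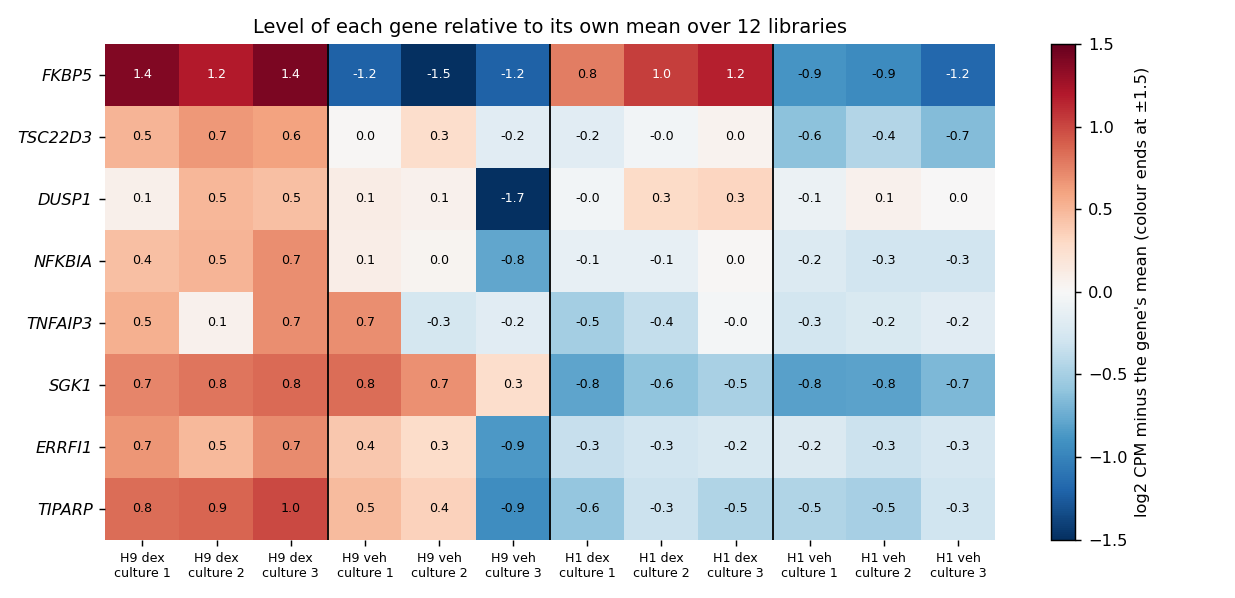
Log2 CPM of each gene minus its own mean over the 12 libraries (colour and printed value), with libraries in columns by line, treatment and culture. H9 vehicle culture 3 is the lowest column for DUSP1, NFKBIA, ERRFI1 and TIPARP, and FKBP5 is above its mean in every dexamethasone column and below it in every vehicle column.

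Among dexamethasone cultures, those of H9 carried more RNA of most of the 8 genes than those of H1. Under dexamethasone 6 of the 8 genes were called higher in H9 than in H1 and 0 lower, with 22.5% of all genes called higher and 43.6% called in either direction. The 6 were SGK1 (log2 1.42 ± 0.14, edgeR adjusted p = 9.32e-06), TIPARP (1.35 ± 0.26, adjusted p = 0.00137), ERRFI1 (0.91 ± 0.24, adjusted p = 0.00797), TNFAIP3 (0.76 ± 0.26, adjusted p = 0.0324), TSC22D3 (0.64 ± 0.12, adjusted p = 0.000951) and NFKBIA (0.63 ± 0.18, adjusted p = 0.0146). SGK1, TIPARP, ERRFI1 and TSC22D3 passed in all 12 leave-one-out fits, NFKBIA in 9 and TNFAIP3 in 8. NFKBIA lost its call without H9 dexamethasone culture 3 or H1 dexamethasone culture 1 or 2 (adjusted p up to 0.0628), and TNFAIP3 without H9 dexamethasone culture 1 or 3 or H1 dexamethasone culture 1 or 2 (up to 0.128). DUSP1 stood at 0.16 ± 0.33 (adjusted p = 0.734).

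In the vehicle cultures 2 of the 8 genes were called higher in H9, SGK1 (log2 1.38 ± 0.14, edgeR adjusted p = 1.32e-05) and TSC22D3 (0.61 ± 0.12, adjusted p = 0.00128), where 25.7% of all genes were called higher and 46.9% in either direction. Without H9 vehicle culture 3 the count was 5 of 8, with 30.1% of genes higher. NFKBIA (0.33 ± 0.09), ERRFI1 (0.61 ± 0.07) and TIPARP (0.83 ± 0.09) then joined, with edgeR adjusted p of 0.0073, 3.57e-06 and 6.59e-07. SGK1, at 30.8 ± 6.1 CPM in H9 vehicle cultures and 11.8 ± 0.6 CPM in H1 vehicle cultures, had the largest difference of the 8 genes between lines in both treatments. The lines also differed in cell markers: summed mesenchymal markers were 184 to 334 CPM in H9 libraries and 1420 to 3231 CPM in H1 libraries, and summed proliferation markers were 57.7 to 94.1 CPM in H9 and 386 to 452 CPM in H1, with all 6 of 6 markers of each list at 1 CPM or more in some library. The mesenchymal sum was carried by COL1A1, COL1A2, COL3A1 and POSTN, while LUM was at 22.9 ± 1.6 CPM in H9 dexamethasone and 22.8 ± 8.4 CPM in H1 dexamethasone cultures and DCN at 9.97 ± 1.94 and 10.2 ± 4.9 CPM in the same groups. Neuronal and astrocyte sums were higher in H9. Under dexamethasone the neuronal sum was 5016 to 5120 CPM in H9 and 3072 to 3649 CPM in H1. The astrocyte sum was 754 to 1068 CPM in H9 and 506 to 648 CPM in H1 dexamethasone cultures. Within these lists SYT1, TUBB3, GFAP and SLC1A2 overlapped between the lines under dexamethasone. Some partners of the same genes were also called between the lines, as 46.9% of all genes were in vehicle cultures (25.7% higher in H9). There 5 of 9 tested genes around SGK1 (with SGK1 itself) were called higher in H9 and 1 lower, led by SGK1 and its substrate NDRG1 (1.28). In the EGF receptor family with ERRFI1 6 of 10 were higher and 1 lower, led by the ligand HBEGF (1.33) and the receptor ERBB3 (1.28), and in the aryl hydrocarbon receptor pathway with TIPARP 4 of 7 were higher and 1 lower, led by CYP1A1 (1.69, higher) and CYP1B1 (-1.28, lower). ERBB3 and CYP1A1 were near the floor. In H9 vehicle cultures they stood at 0.99 ± 0.44 and 1.26 ± 0.45 CPM, and in H1 vehicle cultures at 0.39 ± 0.10 and 0.40 ± 0.09 CPM (SD, n = 3). Counted without SGK1, ERRFI1 and TIPARP themselves, the higher and lower partners were 4 and 1 of 8 around SGK1, 6 and 1 of 9 in the EGF receptor family and 4 and 1 of 6 in the aryl hydrocarbon receptor pathway. Leaving out H9 vehicle culture 3 as well, these counts were 3 and 1, 6 and 1 and 4 and 1, where 30.1% of all genes were called higher. The part of the marker differences in these line differences was not tested, and in whole cultures fewer cells of a type and less RNA per cell cannot be told apart.

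**Figure D4:**
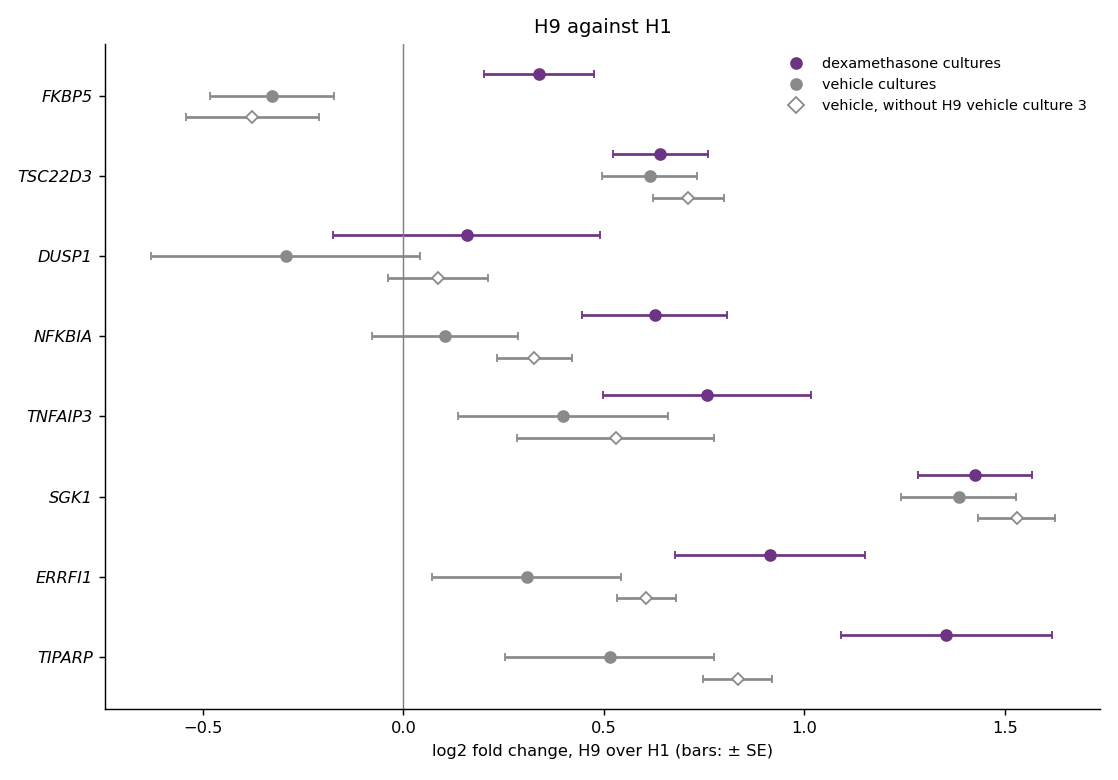
Log2 fold change of each gene, H9 over H1 (horizontal axis, bars ± SE), in the dexamethasone cultures and in the vehicle cultures with and without H9 vehicle culture 3. SGK1 lies near 1.4 in both treatments, and FKBP5 is the gene whose vehicle value of -0.33 and dexamethasone value of 0.34 lie on opposite sides of 0 with and without that culture.

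Levels can be compared between genes only per length, here CPM per kilobase of all annotated exons joined. In H9 dexamethasone cultures the order was ERRFI1 (25.3 ± 2.0 CPM per kb), TSC22D3 (21.4 ± 1.1), DUSP1 (16.5 ± 2.5), TIPARP (16.3 ± 0.9), NFKBIA (12.6 ± 1.1), SGK1 (3.50 ± 0.14), FKBP5 (2.66 ± 0.22) and TNFAIP3 (1.32 ± 0.29) (SD, n = 3). DUSP1 and TIPARP did not differ beyond their spread. In H1 vehicle cultures ERRFI1 (13.7 ± 0.5 CPM per kb) and DUSP1 (12.9 ± 0.7) stood at the top within each other's spread, and FKBP5 was the lowest of the 8 at 0.520 ± 0.054, below TNFAIP3 at 0.818 ± 0.030. Joined exons include exons these cultures may not use, which lowers the value of genes with many isoforms.

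FKBP5 belongs to the chaperone cycle of the receptor. Of 9 genes of that cycle, the mineralocorticoid receptor NR3C2, which also binds glucocorticoids, fell over both lines (log2 -0.60, edgeR adjusted p = 0.0241), and the other 8 did not pass. NR3C2 stood at 12.1 ± 1.0 CPM in H9 dexamethasone cultures and 15.7 ± 1.5 CPM in H9 vehicle cultures, and at 3.92 ± 0.32 CPM in H1 dexamethasone cultures and 6.96 ± 0.50 CPM in H1 vehicle cultures (SD, n = 3), with no overlap in either line. It was the sole gene called lower over both lines, 0.00561% of those tested. The call held in 3 of 12 leave-one-out fits, those without H9 vehicle culture 1, H9 vehicle culture 3 or H9 dexamethasone culture 2, and adjusted p reached 0.110 in the others. The list's median was 0.08 (0.04 without H9 vehicle culture 3), against -0.01 over all genes. The glucocorticoid receptor itself, NR3C1, named outside the rule for lists, stood at 36.7 ± 1.2 CPM in H9 dexamethasone cultures and 37.3 ± 6.3 CPM in H9 vehicle cultures, and at 24.3 ± 1.0 CPM in H1 dexamethasone cultures and 31.8 ± 2.7 CPM in H1 vehicle cultures, and did not pass in either line. The 3 chaperone genes with the most counts were HSPA8, HSP90AA1 and HSP90AB1, whose log2 changes over both lines were 0.13, 0.06 and 0.14, none past the test.

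TSC22D3 was called alone in its family: TSC22D1, TSC22D2 and TSC22D4 had log2 changes over both lines of 0.11, 0.02 and 0.12, none past the test. Over both lines 0.101% of all genes tested were called, so short lists without a call do not stand apart from other genes. Beside DUSP1, 7 of the 9 other MAP kinase phosphatases were tested and none was called for dexamethasone, with a median of 0.13 over both lines. DUSP8 is listed at 0 counts in every library, with the same limit as SOX2, and DUSP16 had too few. DUSP4, DUSP6 and DUSP5, the most abundant of them in CPM, had log2 changes of 0.07, 0.19 and 0.18. Beside NFKBIA and TNFAIP3, 16 of 18 genes of the NF-kB pathway were tested and none was called, with a median of -0.06. Among them TAX1BP1, RNF11 and ITCH, which work with A20 in a ubiquitin-editing complex, had log2 changes of 0.02, 0.21 and 0.04. NFKBIB is listed at 0 counts in every library, with the same limit as SOX2, and BIRC3 had too few.

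The other partners of the 8 genes gave no call in edgeR's test either, where 0.101% of all genes tested were called over both lines. The lack of a call in lists this short does not set them apart from other genes. Of 8 tested genes around SGK1, 0 passed for dexamethasone, with a median of 0.01 and with NEDD4L, a ubiquitin ligase that SGK1 phosphorylates, at 0.06, PDPK1, the kinase that activates SGK1, at 0.03, and RICTOR, a subunit of the complex that primes it, at 0.15. Of 9 tested genes around ERRFI1 in the EGF receptor family, 0 passed, with a median of -0.15, and of 6 around TIPARP in the aryl hydrocarbon receptor pathway 0 passed, with a median of -0.03. Of 10 tested anti-inflammatory targets outside the 8 genes, 0 passed, with a median of 0.03. Of 12 inflammatory genes driven by NF-kB and AP-1 only 6 had enough counts for testing, none passed, and their median was -0.33. IL6, IL1B, CXCL1, CXCL2 and CXCL8 had too few counts, and TNF is listed at 0 counts in every library, with the same limit as SOX2. At an unadjusted p under 0.05 in edgeR over both lines there were 1, 3, 0, 2 and 2 genes in these 5 lists, taken in the order given. They were among 8, 9, 6, 10 and 6 tested. There were 0 among the phosphatases, the NF-kB pathway and the other TSC22 genes. Of all genes tested, 1335 of 17819 (7.49%) were under that threshold. DESeq2 called IL11 over both lines and in H1 and ZFP36L2 in H9, and limma-voom called no gene of these lists in any of the 3 comparisons. Without H9 vehicle culture 3 the medians over both lines were 0.07 for the phosphatases, -0.03 for the NF-kB pathway, 0.02 around SGK1, -0.12 around ERRFI1, -0.02 around TIPARP, -0.03 for the anti-inflammatory targets and -0.31 for the inflammatory genes, so that of the anti-inflammatory targets changed sign.

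Some of these genes passed without H9 vehicle culture 3, and they are named after their values were seen. ZFP36, which destabilises inflammatory mRNAs, rose over both lines (log2 0.50, edgeR adjusted p = 0.00399) and in H9 (0.58). It stood at 29.3 ± 4.0 CPM in H9 dexamethasone cultures against 19.9 and 19.2 CPM in H9 vehicle cultures 1 and 2 and 6.05 CPM in culture 3, and at 8.39 ± 0.29 CPM in H1 dexamethasone cultures and 6.31 ± 0.20 CPM in H1 vehicle cultures. The chemokine gene CCL2 fell over both lines (-0.58, adjusted p = 0.00149) and in H1 (-0.78). It was 26.5 ± 2.9 CPM in H1 dexamethasone cultures and 45.5 ± 3.1 CPM in H1 vehicle cultures, and 62.6 ± 9.3 CPM in H9 dexamethasone cultures (SD, n = 3 each). The H9 vehicle cultures 1 and 2, which this fit used, had 89.9 and 73.7 CPM, and culture 3, which it left out, had 12.8 CPM. In H9 alone CCL2 did not pass (-0.39, edgeR adjusted p = 0.207). The cytokine gene IL11 fell over both lines (-0.75, adjusted p = 0.0318).

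**Figure D5:**
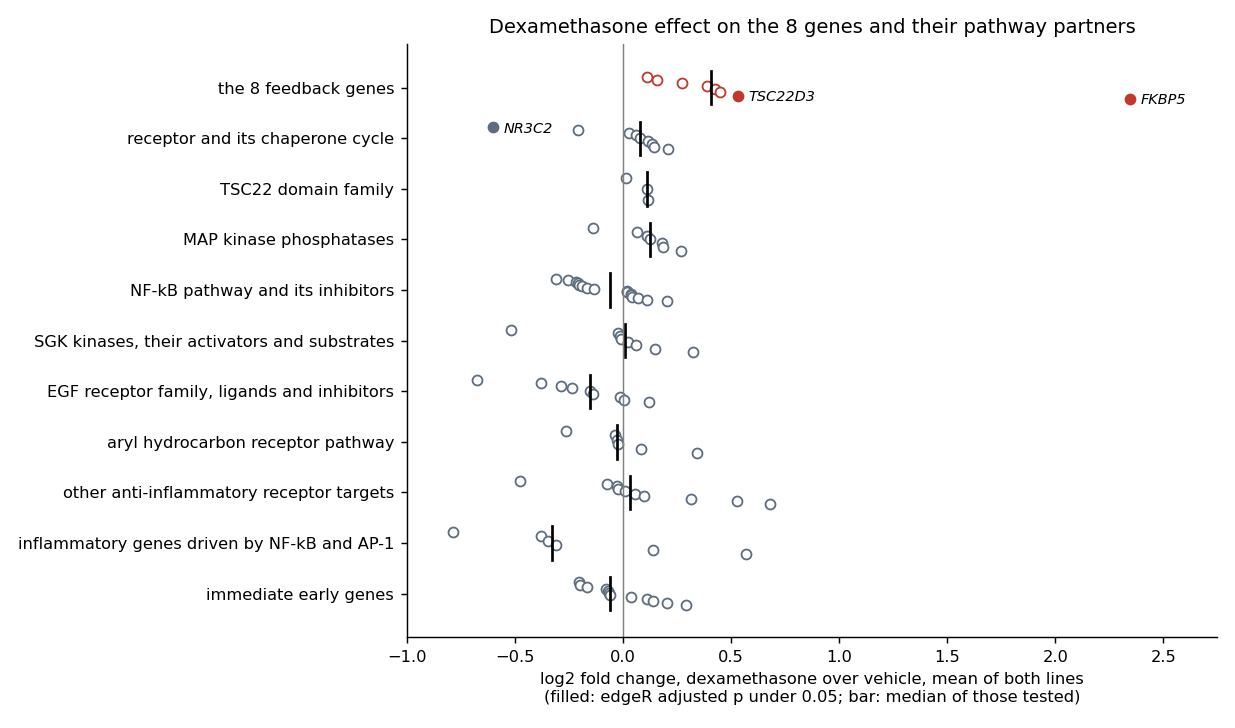
Log2 fold change for dexamethasone over vehicle, mean of both lines (horizontal axis), of the 8 genes and of the tested members of 10 pathway lists without them; filled points passed edgeR's test and the bar is the median of the points in a row. FKBP5, TSC22D3 and NR3C2 are the filled points, and the median of the 8 genes, 0.41, is the rightmost bar.

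Several of the 8 genes are also known to respond early to growth factors and neuronal activity, as FOS, EGR1, ARC and NPAS4 do. Summed levels of 13 immediate early genes were 718 to 790 CPM in H9 dexamethasone cultures and 716 to 742 CPM in H9 vehicle cultures, and 236 to 273 CPM in H1 dexamethasone cultures and 259 to 261 CPM in H1 vehicle cultures. IER3, among the 13, is listed at 0 counts in every library, with the same limit as SOX2. All 12 of the 12 tested were called higher in H9 than in H1 vehicle cultures, where 25.7% of all genes were called higher and 46.9% in either direction. The median log2 difference of these 12 was 1.80, against 0.35 for the 8 genes and 0.03 for all genes. These medians were 1.85 for the early genes and 0.57 for the 8 genes without H9 vehicle culture 3. For dexamethasone over both lines none of the 12 was called by edgeR, DESeq2 or limma-voom, with a median of -0.06 and 0 at an unadjusted p under 0.05 in edgeR. The largest line differences among them were those of NPAS4 (2.91) and ARC (2.85). FOS was at 65.7 CPM in H9 vehicle culture 3, against 129 CPM in both sisters, while the summed level there was 742 CPM. The part of this early-gene level in the line differences of the 8 genes was not tested.

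The genes whose profile over the 12 libraries was most like that of FKBP5, by the root mean square difference of standardized log2 levels among 14966 genes, were MT2A (0.252), RASSF4 (0.269), PIK3R1 (0.325), ADAMTS9 (0.358) and HIF3A (0.428), where the median gene stood at 1.35. MT2A is a metallothionein and PIK3R1 a regulatory subunit of a lipid kinase. All 5 of them rose over both lines, by 1.31, 1.30, 0.55, 0.85 and 1.53 on the log2 scale, each less than FKBP5. They were chosen by likeness to FKBP5 over the same 12 libraries, so a rise with dexamethasone largely follows from that choice. Closest to TSC22D3 were LMNTD1 (0.178), KLF9 (0.327) and TENT5B (0.342). This choice, too, used the 12 libraries in which their changes were tested. KLF9, a transcription factor, rose by 1.07 ± 0.11 over both lines (edgeR adjusted p = 0.000967). TENT5B rose by 1.15 ± 0.17 (adjusted p = 0.0214), a call kept in 6 of 12 leave-one-out fits with an adjusted p of up to 0.0903 in the others. It was lost without H9 vehicle culture 2, H1 vehicle culture 1, 2 or 3, or H1 dexamethasone culture 2 or 3. LMNTD1 (0.85 ± 0.16, adjusted p = 0.0959) did not pass, but passed without H9 vehicle culture 3 (adjusted p = 0.0310).

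The nearest profiles of the other 6 genes were those of genes that the test did not call for dexamethasone. They were LIX1, SRSF8 and MBIP for DUSP1, KLHL4, YWHAG and HTR1D for NFKBIA, FHL2, MREG and CD74 for TNFAIP3, NAP1L3, CPE and PCTP for SGK1, RPE65, LINC01278 and TCEAL1 for ERRFI1, and WEE1, ZBTB38 and RPE65 for TIPARP. RPE65 stood near both ERRFI1 (0.155) and TIPARP (0.164), and WEE1, a cell cycle kinase, was 0.144 from TIPARP. RPE65 had log2 changes for dexamethasone of 0.49 ± 0.26 in H9 and -0.06 ± 0.26 in H1, and WEE1 of 0.48 ± 0.17 in H9 and -0.04 ± 0.17 in H1. In H9 these were 0.16 ± 0.07 for RPE65 and 0.27 ± 0.07 for WEE1 without H9 vehicle culture 3, when KLHL4 passed over both lines (0.32 ± 0.06, edgeR adjusted p = 0.0189). The profile distances of LIX1, SRSF8 and MBIP from DUSP1 were 0.142, 0.178 and 0.181 with that culture. Without it they were 0.404, 0.564 and 0.542, a comparison added after the data were seen. Distances of the other genes named moved by less than 1.5 times, but several fell in the order of nearness. Without that culture RPE65, LINC01278 and TCEAL1 ranked 29, 57 and 54 for ERRFI1. NAP1L3, CPE and PCTP ranked 27, 28 and 33 for SGK1, and WEE1, ZBTB38 and RPE65 3, 13 and 18 for TIPARP. KLHL4, YWHAG and HTR1D ranked 4, 1 and 18 for NFKBIA, and FHL2, MREG and CD74 3, 11 and 14 for TNFAIP3. LIX1, SRSF8 and MBIP ranked 1, 5 and 2 for DUSP1. For FKBP5, MT2A, RASSF4, PIK3R1, ADAMTS9 and HIF3A ranked 2, 3, 1, 8 and 4. For TSC22D3, LMNTD1, KLF9 and TENT5B ranked 1, 10 and 7.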

How the data were processed

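The authors deposited raw read counts per gene for each of 12 libraries, whole numbers that are not normalized. STAR 2.5.3a and HTSeq are named by the submitters' processing notes, with the builds hg38 and GRCh38.p10. Which annotation release and strand setting were used, and how multiply matching reads were handled, is not given in the sources used here. The labels for cell line and condition set the groups, and source names gave the culture numbers.

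From these counts, genes were filtered with filterByExpr (17819 left), scaled by TMM and tested with edgeR 4.0.16 (quasi-likelihood F-test, 4 group means, 8 residual degrees of freedom, Benjamini-Hochberg over all genes, threshold 0.05), in R 4.3.3. Each standard error is the size of the log2 fold change over the root of its F. CPM are counts scaled to TMM-adjusted library size, and log2 levels add a prior count of 2. Intervals of effects are at the 95% level. Total counts of 14751168 to 27505804 and 63 to 2941 counts for any of the 8 genes set the precision. The alternatives were RLE size factors, no filter, a CPM minimum of 1 in 3 or more libraries, DESeq2 1.42.0, limma-voom (limma 3.58.1), culture number as a block, each line alone, and each library left out in turn.

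The 8 genes and the pathway and marker lists were chosen with earlier results of these data known. Of each list the text names every gene called for dexamethasone and otherwise at most 3 of the highest mean CPM, and between lines the 2 largest called differences. Likeness names the 5 nearest genes for FKBP5 and the 3 nearest for the others, among genes of mean CPM of at least 1. NR3C1, the genes called only without H9 vehicle culture 3, and EGR1 are named outside these rules. Figures were drawn with matplotlib 3.10.9 in Python 3.11.15.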

Additional observations from a re-analysis of the deposited data

Results flagged for a closer look

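Within the pathway lists, CYLD and FOSB separated in opposite ways in the lines, and neither passed in either line: every H9 dexamethasone culture lay above every H9 vehicle culture, and every H1 dexamethasone culture lay below every H1 vehicle culture. CYLD, a deubiquitinase that restrains NF-kB, was at 77.7 ± 1.3 CPM in H9 dexamethasone cultures and 65.1 ± 13.1 CPM in H9 vehicle cultures, and at 52.4 ± 1.9 CPM in H1 dexamethasone cultures and 56.8 ± 2.6 CPM in H1 vehicle cultures (SD, n = 3 each). FOSB, an immediate early transcription factor, was at 26.5 ± 0.6 CPM in H9 dexamethasone cultures and 22.6 ± 3.6 CPM in H9 vehicle cultures, and at 3.08 ± 0.40 CPM in H1 dexamethasone cultures and 3.93 ± 0.10 CPM in H1 vehicle cultures. The dexamethasone effect in H9 exceeded that in H1 by 0.37 ± 0.18 for CYLD and 0.58 ± 0.20 for FOSB on the log2 scale, and edgeR's test of the difference gave an adjusted p of 0.548 for both. Without H9 vehicle culture 3 the differences were 0.21 ± 0.09 and 0.46 ± 0.15 (adjusted p = 0.430 and 0.399). Over all genes tested, 115 of 17819 (0.645%) were higher in H9 and lower in H1 without overlap. For CYLD the highest H1 dexamethasone culture and the lowest H1 vehicle culture were both at 54.2 CPM.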

How the results depend on the processing

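FKBP5 passed for dexamethasone over both lines, in H9 and in H1 under every alternative run, including each library left out. Genes called over both lines were 18, against 30 with no filter, 116 in DESeq2 and 10 to 140 with 1 library left out, the highest without H9 vehicle culture 3. Genes called in H9 were 12, against 24 with no filter, 166 in DESeq2, 2 from that line's 6 libraries alone and 6 to 53 with 1 library left out. Genes called in H1 were 9, against 32 in DESeq2, 50 from that line alone and 3 to 59 with 1 library left out. Of the 8 genes, 2 were called over both lines and 1 to 3 with 1 library left out. In H9 the count was 1, against 3 in DESeq2 and 1 to 4 with 1 library left out. In H1 it was 1, against 2 in DESeq2, 2 from that line alone and 1 to 2 with 1 library left out. For H9 against H1, the calls under dexamethasone were 7777 genes and 6106 to 11697 with 1 library dropped, and in vehicle 2 of the 8 genes and 2 to 5 with 1 library dropped, the highest counts without H9 vehicle culture 3. The cause of these shifts was not tested.

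The labels do not say that culture numbers pair the samples, and the correlations do not settle it. Deviations of same-numbered cultures correlated at -0.015, 0.113 and 0.012 in H9 and at 0.179, 0.0996 and 0.0498 in H1. Those of unlike-numbered cultures ran from -0.134 to 0.0841 in H9 and from -0.178 to 0.0732 in H1. Not every library was closest to its own number. With culture number as a block, 1 of the 8 genes was called over both lines, as TSC22D3 had an adjusted p of 0.142, and NR3C2 and PIK3R1 had 0.186 and 0.0517.

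Signs turned in leave-one-out fits only for values that did not pass. With 1 library dropped, the dexamethasone effect in H1 ran between -0.0999 and 0.0307 for TIPARP and between -0.217 and 0.0377 for TNFAIP3. The H9 minus H1 difference of that effect ran between -0.0687 and 0.153 for TSC22D3 and between -0.104 and 0.194 for SGK1. H9 against H1 in vehicle ran between -0.0640 and 0.326 for NFKBIA, between -0.0257 and 0.580 for TNFAIP3 and between -0.566 and 0.0865 for DUSP1.

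The fewest counts of any of the 8 genes in a library were the 63 of TNFAIP3, and counts did not order the precision: over both lines the standard error was 0.18 for TNFAIP3, 0.24 for DUSP1 and 0.11 for FKBP5.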
